A study of Mus musculus with 13 samples.

Results

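Genes that were near silent in one group of mice and expressed in another were chosen by their normalized read counts in Atm-/- thymic lymphomas and wild-type (WT) thymuses. A gene entered when its normalized count was at most 3 in each of 5 Atm-/- lymphomas and at least 50 in each of 3 WT thymuses, or the reverse. Of 43629 genes in the table, 76 met these limits. Genes on the X and Y chromosomes or with a T cell receptor or immunoglobulin biotype were left out (15 genes), as were 9 genes by name (names beginning with H2-, Hox, Gzm, Trim or Col, and Gm1966, Gvin1, Cym, Tbata and Xcl1). The remaining 52 genes comprised 31 genes near 0 in Atm-/- lymphomas and 21 genes near 0 in WT thymus. Values at or below 3 are called near 0 here, values of at least 50 are called on, and other values are called between.

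The 13 libraries were RNA sequencing of single-cell suspensions, each from a different mouse. The 5 Atm-/- lymphomas arose in mice without Atm on the 129S6/SvEv strain. The 5 Rag2c/c p53-/- lymphomas arose in mice whose RAG2 protein is cut short at its C terminus and which lack p53, on a mixed background of C57BL/6 and 129S6/SvEv. The 3 thymuses came from WT C57BL/6 mice and were re-used from another series. Strain, series, tumor state and genotype therefore changed together between WT thymus and the lymphoma groups and cannot be told apart. Between the lymphoma groups, genotype and strain, the latter shared in part, changed together and cannot be told apart either. The Rag2c/c p53-/- lymphomas played no part in the choice of genes, and their values are the measurements the comparisons below rest on.

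ATM is the kinase that signals DNA double-strand breaks, and RAG1 and RAG2 make such breaks when T cell receptor genes are assembled in the thymus. Mice without ATM develop thymic lymphomas. Processed pseudogenes are copies of spliced mRNAs that were inserted back into the genome, so they lack the introns of the gene they came from.

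The deposited values are read counts divided by a size factor of each library and rounded to whole numbers, and their column totals lay between 19788898 and 21591289. The totals thus no longer show depth. In 6 libraries low values skipped whole numbers, which gave the worth of 1 read as 1.47 to 3.38 normalized counts, up to 3.38 in Rag2c/c p53-/- lymphoma replicate 2 (about 6.36 M reads) and 3.23 in WT thymus replicate 2 (about 6.68 M reads). In the latter 2 libraries a value of 3 is 1 read. In the other 7 libraries 1 read was worth less than 1 and depth was not estimated. Of the altered genes, Atm had 208 to 732 normalized counts in Atm-/- lymphomas, 439 to 1315 in Rag2c/c p53-/- lymphomas and 1559 to 2274 in WT thymus. Trp53 had 2018 to 5461 in Rag2c/c p53-/- lymphomas, 6853 to 11318 in Atm-/- lymphomas and 4387 to 6341 in WT thymus, and Rag2 had 260 to 790 in Rag2c/c p53-/-, 46 to 1025 in Atm-/- and 4199 to 5409 in WT libraries. These gene totals span the whole gene and cannot check which part of it was deleted.

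Several of the 52 genes were copies of spliced coding genes, and their sequences show how little separates them from the coding gene. With a minimum of 90% identity over at least 50% of the transcript in GENCODE vM21 (GRCm38), 9 of the 21 genes near 0 in WT thymus (42.9%) and 7 of the 31 genes near 0 in Atm-/- lymphomas (22.6%) resembled the transcript of a spliced coding gene, beside 7.1% of all genes tested. The 7 were relatives within gene families except for the pseudogene Hmgb1-ps8. The stretches of 60 bases below, 5′ to 3′ on the strand of each gene, lie in the coding sequence of the coding gene and were chosen as those with most differences. Capitals mark bases that differ between a copy and its coding gene. Rpl15 encodes a ribosomal protein of the large subunit. Its copies Rpl15-ps2 (chr9:72061031-72061090, + strand) and Gm8420 (chr1:51941106-51941165, - strand) are set beside exon 2 of Rpl15 (chr14:18270295-18270354, - strand).
Rpl15-ps2: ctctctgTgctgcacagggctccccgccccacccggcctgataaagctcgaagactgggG
Gm8420: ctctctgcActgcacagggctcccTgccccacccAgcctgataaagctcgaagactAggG
Rpl15: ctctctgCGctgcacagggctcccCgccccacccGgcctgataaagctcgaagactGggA

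Cox6c encodes a subunit of cytochrome c oxidase in mitochondria. Its copies Gm16399 (chr3:14802505-14802564, - strand) and Gm6265 (chr12:56373745-56373804, - strand) are set beside Cox6c (chr15:35937193-35937252, - strand).
Gm16399: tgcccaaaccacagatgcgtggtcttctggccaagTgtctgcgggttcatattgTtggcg
Gm6265: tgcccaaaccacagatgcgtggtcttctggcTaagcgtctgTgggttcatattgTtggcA
Cox6c: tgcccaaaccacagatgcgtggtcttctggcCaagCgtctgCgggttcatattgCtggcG

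Phgdh encodes the first enzyme of serine synthesis, and Larp7 encodes a protein that binds the 7SK RNA. Gm13337 (chr2:22068476-22068535, + strand) stands beside exon 7 of Phgdh (chr3:98320721-98320780, - strand), and Gm12666 (exon 3, chr4:92191184-92191243, - strand) beside exon 7 of Larp7 (chr3:127546264-127546323, - strand).
Gm13337: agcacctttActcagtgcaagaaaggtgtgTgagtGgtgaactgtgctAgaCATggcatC
Phgdh: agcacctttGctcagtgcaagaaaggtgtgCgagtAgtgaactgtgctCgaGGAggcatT
Gm12666: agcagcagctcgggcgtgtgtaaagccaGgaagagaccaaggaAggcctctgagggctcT
Larp7: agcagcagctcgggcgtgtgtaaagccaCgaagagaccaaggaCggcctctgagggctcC

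Klra9 and Klra3 encode related Ly49 receptors of natural killer cells and show the likeness within a gene family. Exon 4 of Klra9 (chr6:130188655-130188714, - strand) is set beside exon 4 of Klra3 (chr6:130333160-130333219, - strand).
Klra9: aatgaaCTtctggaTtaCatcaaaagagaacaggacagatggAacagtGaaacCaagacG
Klra3: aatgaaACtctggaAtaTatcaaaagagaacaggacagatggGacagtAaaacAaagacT

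Over the whole alignment Rpl15-ps2 differed from Rpl15 at 8 of 613 bases and Gm8420 at 20 of 596. Gm6265 differed from Cox6c at 7 of 231 bases and Gm16399 at 12 of 219. Gm12666 differed from Larp7 at 9 of 761 bases, Gm6166 differed from Fabp5, the gene of a fatty acid binding protein, at 5 of 407, and Gm13337 differed from Phgdh at 61 of 1591. Klra9 differed from Klra3 at 47 of 1238. All of these sequences are those of the reference, and the sequences of the mice of the study were not read here. Reads without one of these differences cannot be assigned to one copy, so the values of the copies rest on part of their length and are uncertain.

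The 52 genes lay on 19 chromosomes. By construction, all 31 genes near 0 in Atm-/- lymphomas were lower there than in WT thymus and all 21 genes near 0 in WT were higher. Over all 15872 genes tested with limma on log2(value + 1), 17.0% were called lower and 12.6% higher in Atm-/- lymphomas than in WT thymus, and nothing is read from the members' share because this contrast chose them. Calls required an adjusted p (Benjamini-Hochberg) below 0.05, a log2 difference of 1 or more in either direction, and a group mean reaching 10 in one of the groups compared. All 52 genes passed the filter of at least 10 in at least 3 libraries, and each could pass through the group in which it was on. In bulk libraries, fewer cells of a type and less RNA per cell cannot be told apart.

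**Figure D1:**
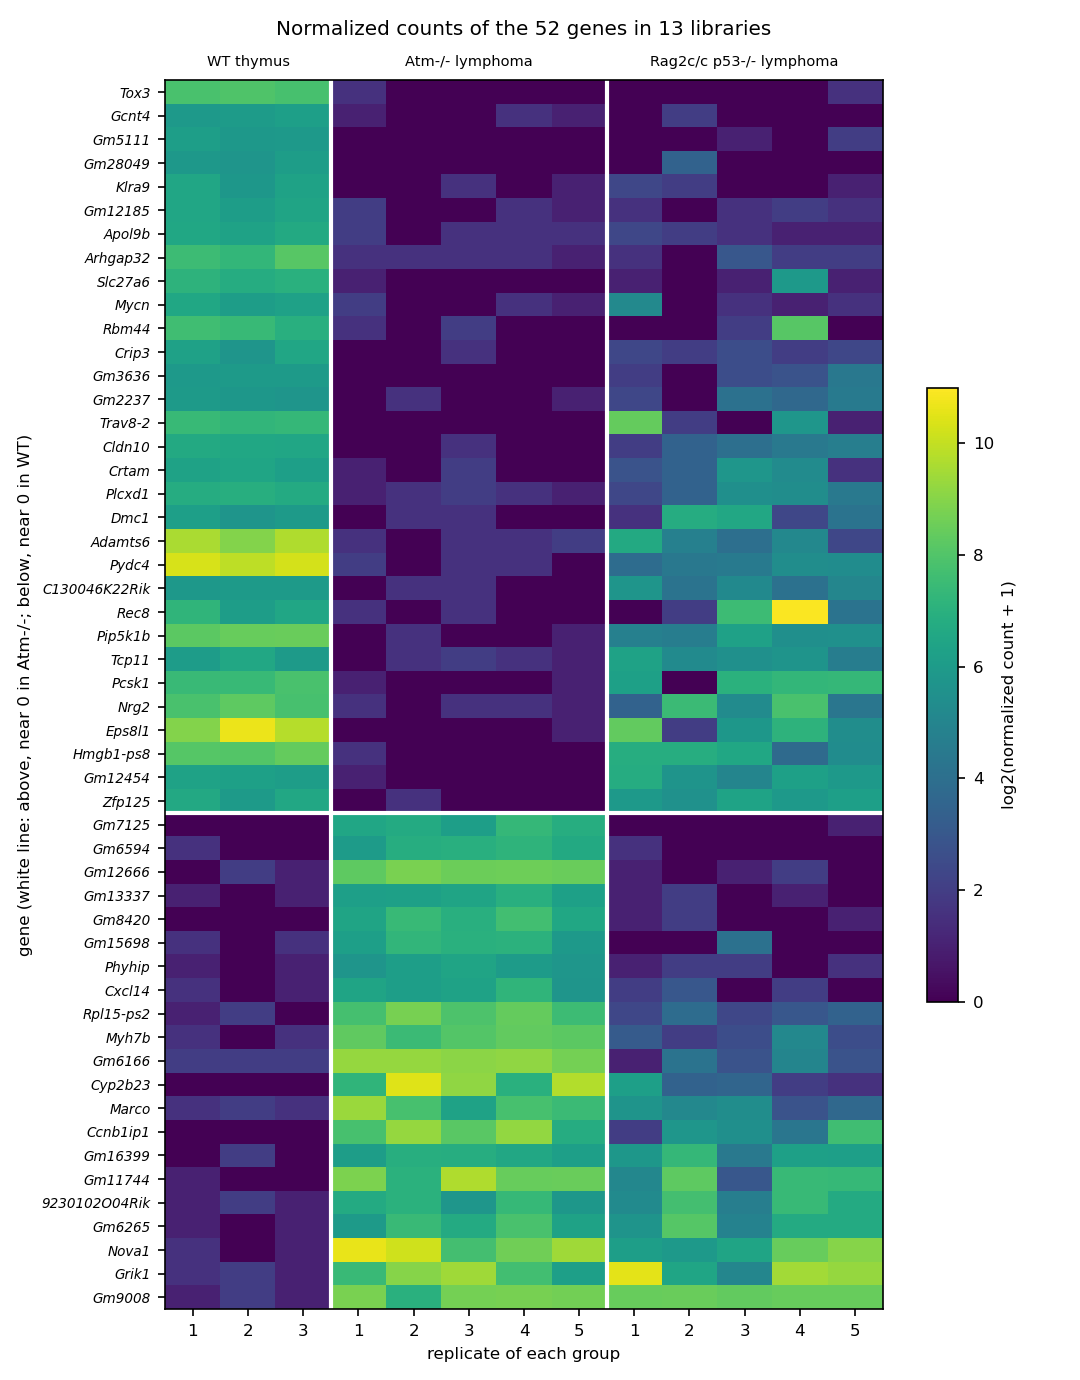
Log2(normalized count + 1) of the 52 genes (rows) in 13 libraries (columns, by group and replicate). The WT and Atm-/- columns are opposite by the rule, and the 5 Rag2c/c p53-/- columns, which the rule did not use, hold dark, intermediate and bright cells in both sets.

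The first question was which state these genes took in the Rag2c/c p53-/- lymphomas. Of the 31 genes near 0 in Atm-/- lymphomas, 23 were called lower and 0 higher in Rag2c/c p53-/- lymphomas against WT thymus, beside 13.9% of all genes tested called lower. Nothing is read from this count, because the rule itself required the WT values to be high. For 14 of the 31 genes the 3 WT thymuses were needed to pass the filter, so that a lower call was favored in advance, and all 14 were called. No test is given for these 14 genes against WT below. Among the other 17 genes, which reached 10 in at least 3 Rag2c/c p53-/- lymphomas, 9 were called lower. The count of 23 fell to 10, 12 and 11 without WT replicate 1, 2 and 3, when only 23 of the 31 genes passed the filter.

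Of the 21 genes near 0 in WT thymus, 11 were called higher in Rag2c/c p53-/- lymphomas than in the WT, beside 9.77% of all genes tested. Here the WT side was held low by the rule, which favored a higher call in advance, so nothing is read from this count. The rule did not use the level in Rag2c/c p53-/- lymphomas. All 10 genes that reached 10 in at least 3 Rag2c/c p53-/- lymphomas were called, and 1 of the other 11 was. Between the lymphomas, 15 of the 31 genes were called lower in Atm-/- than in Rag2c/c p53-/- lymphomas, beside 4.33% of all genes tested. The rule held the Atm-/- side low, which favored a lower call in advance, so nothing is read from this count. Of the 17 genes that reached 10 in at least 3 Rag2c/c p53-/- lymphomas, 15 were called, and 0 of the other 14 were. Of the 21 genes near 0 in WT, 14 were called higher in Atm-/- than in Rag2c/c p53-/- lymphomas, beside 3.51%. Nothing is read from that count either, since the rule required the Atm-/- values to be high and 11 of the 21 genes passed the filter only through them. All 11 were called, and they are given below without a test between the lymphomas, whereas 3 of the other 10 were called. Every comparison shares WT or Atm-/- libraries with the rule, and the p-values below compare the Rag2c/c p53-/- lymphomas with libraries that chose the genes.

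**Figure D2:**
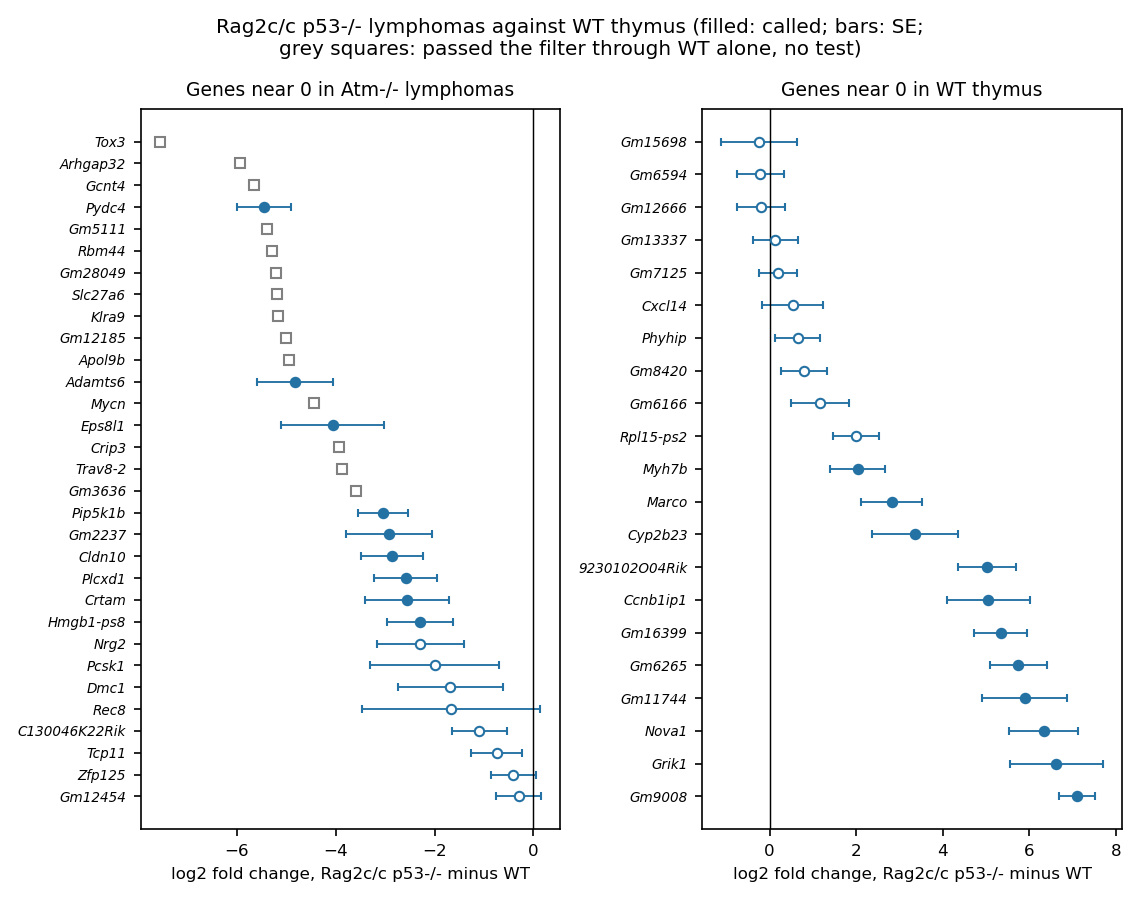
Log2 fold change of each gene between Rag2c/c p53-/- lymphomas and WT thymus (horizontal axis, limma on log2(value + 1), bars are SE, filled points are called, grey squares are the 14 genes that passed the filter only through WT and have no test) for the 31 genes near 0 in Atm-/- lymphomas (left) and the 21 genes near 0 in WT (right). The estimates on the left lie below 0 and those on the right reach 7.10 for Gm9008.

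Counted library by library, between 10 and 17 of the 31 genes were near 0 in a single Rag2c/c p53-/- lymphoma, and between 3 and 10 were on. As a background, 10699 genes, with the same chromosomes and biotypes left out, had at least 50 in each WT thymus, and 0.308% to 1.07% of these were near 0 in a given Rag2c/c p53-/- lymphoma. Of 7397 genes that were at most 3 in each Atm-/- lymphoma, 94.6% to 96.1% were near 0 in a given Rag2c/c p53-/- lymphoma and 0.122% to 0.338% were on. Each background is set by 1 group, whereas the members were chosen on both. Of the 21 genes near 0 in WT, 2 to 8 were on in a single Rag2c/c p53-/- lymphoma, beside 0.553% to 0.812% of 8498 genes that were at most 3 in each WT thymus and above 0 in some library. Of 9938 genes with at least 50 in each Atm-/- lymphoma, 97.6% to 98.6% were on in a given Rag2c/c p53-/- lymphoma.

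Near 0 in all 5 Rag2c/c p53-/- lymphomas, as in all 5 Atm-/- lymphomas, were 4 of the 31 genes (Tox3, Gcnt4, Gm5111 and Gm12185), beside 0.084% of the genes on in WT and 87.0% of those near 0 in Atm-/- lymphomas. On in all 5 were 2 of the 21 genes near 0 in WT (Nova1 and Gm9008), and 6 of them were near 0 in all 5 (Gm8420, Gm13337, Gm12666, Phyhip, Gm7125 and Gm6594). Over all genes near 0 in WT, 0.094% were on in all 5 and 80.7% were near 0 in all 5. A further 10 genes were split, near 0 in at least 1 and on in at least 1 Rag2c/c p53-/- lymphoma, 8 of the 31 and 2 of the 21, beside 0.626% of the genes on in WT and 0.883% of those near 0 in WT.

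**Figure D3:**
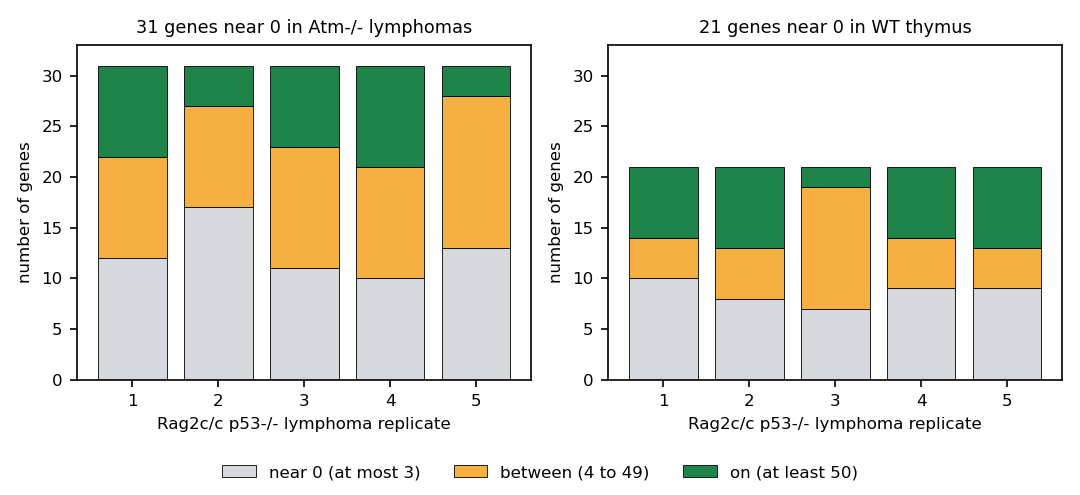
Number of genes (vertical axis) near 0 (at most 3), between and on (at least 50) in each of 5 Rag2c/c p53-/- lymphomas (horizontal axis), for the 31 genes near 0 in Atm-/- lymphomas and the 21 genes near 0 in WT. Replicate 2 has most of the 31 genes near 0 (17), and replicate 3 has only 2 of the 21 genes on.

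Pydc4 (ENSMUSG00000073491, chr1:173566284-173599274), a member of the interferon-induced PYHIN family, had 1287, 952 and 1245 normalized counts in WT thymus and 0 to 3 in Atm-/- lymphomas. In Rag2c/c p53-/- lymphomas it had 14, 20, 22, 41 and 40. Its level there lay between the other groups with no overlap on either side, and the log2 fold change against WT was -5.46 ± 0.55 (SE, limma adjusted p = 2.1e-05). Pydc4 shares 96.4% identity with another PYHIN gene, which carries the name Pydc3 in the table and had a mean of 2028 in WT, 69.2 in Atm-/- and 97.8 in Rag2c/c p53-/- libraries, so both values are uncertain. Of the 12 PYHIN genes tested, 5 were lower and 1 was higher in Atm-/- lymphomas than in WT, and 7 were lower in Rag2c/c p53-/- lymphomas.

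Klra9 (ENSMUSG00000033024, chr6:130178753-130193112) encodes a Ly49 receptor of natural killer cells. It had 91, 55 and 80 in WT thymus, 0 to 2 in Atm-/- lymphomas and 4, 3, 0, 0 and 1 in Rag2c/c p53-/- lymphomas. Both lymphoma groups lay below WT in every library. Klra9 was 1 of 18 tested lectins of the natural killer complex, of which 15 were lower in Atm-/- lymphomas and 16 in Rag2c/c p53-/- lymphomas, each against WT. Of 10 markers of natural killer and innate-like cells, 8 were lower in Atm-/- lymphomas and 7 were lower and 1 was higher in Rag2c/c p53-/- lymphomas, and their summed level was 11404 to 13067 in WT, 1054 to 6720 in Atm-/- and 5283 to 10815 in Rag2c/c p53-/- libraries. Their part in the level of Klra9 was not tested.

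Crtam (ENSMUSG00000032021, chr9:40972753-41004628), a surface receptor of activated cytotoxic lymphocytes, had 79, 88 and 73 in WT and at most 3 in Atm-/- lymphomas. The Rag2c/c p53-/- lymphomas spread from near 0 to the edge of the on state, with 6, 10, 54, 38 and 2. The log2 fold change against WT was -2.55 ± 0.85 (SE, limma adjusted p = 0.0306), and this call was lost when any 1 WT thymus or Rag2c/c p53-/- replicate 1, 2 or 5 was left out (adjusted p up to 0.0908). Against Atm-/- lymphomas the Rag2c/c p53-/- lymphomas were higher, with an Atm-/- minus Rag2c/c p53-/- log2 fold change of -3.18 ± 0.74 (SE, limma adjusted p = 0.0139).

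Apol9b (ENSMUSG00000068246, chr15:77729121-77736381), of the apolipoprotein L family, had 92, 81 and 102 in WT and 1 to 4 in Rag2c/c p53-/- lymphomas. It is 98.4% identical to Apol9a, whose mean was 27.0 in WT, 3.6 in Atm-/- and 1.0 in Rag2c/c p53-/- libraries. Gm12185 (chr11:48904656-48992226) had 89, 68 and 86 in WT and 0 to 3 in all 10 lymphomas. It spans Tgtp1, an immunity-related GTPase gene on the same strand with a mean of 272 in WT, 4.2 in Atm-/- and 6.2 in Rag2c/c p53-/- libraries. Of 16 guanylate binding proteins and immunity-related GTPases tested, 13 were lower and 1 was higher in Atm-/- lymphomas than in WT, and 15 were lower in Rag2c/c p53-/- lymphomas.

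Marco (ENSMUSG00000026390, chr1:120474538-120505024) encodes a scavenger receptor of macrophages. It had 2, 3 and 2 in WT thymus and 644, 219, 79, 220 and 178 in Atm-/- lymphomas. In Rag2c/c p53-/- lymphomas the values were 51, 34, 41, 6 and 12, above every WT thymus and below every Atm-/- lymphoma. The log2 fold change was 2.82 ± 0.71 against WT (SE, limma adjusted p = 0.0074) and 3.20 ± 0.61 for Atm-/- minus Rag2c/c p53-/- lymphomas (adjusted p = 0.00499). By the rule, Marco was held low in WT and high in Atm-/- lymphomas. Of 10 myeloid and dendritic cell markers, 4 were higher and 2 lower in Atm-/- lymphomas than in WT, and their summed level was 4779 to 6291 in WT, 7049 to 12327 in Atm-/- and 4222 to 8907 in Rag2c/c p53-/- libraries. Their part in the level of Marco was not tested. The chemokine gene Cxcl14 (chr13:56288647-56296551) had 84, 71, 81, 147 and 52 in Atm-/- lymphomas, 2, 0 and 1 in WT and 3, 7, 0, 3 and 0 in Rag2c/c p53-/- lymphomas.

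Tox3 (ENSMUSG00000043668, chr8:90247040-90348343), a nuclear factor with an HMG box from the TOX family, had 231, 247 and 224 normalized counts in WT thymus. It had 2, 0, 0, 0 and 0 in Atm-/- lymphomas and 0, 0, 0, 0 and 2 in Rag2c/c p53-/- lymphomas. Tox3 was therefore near 0 in all 10 lymphomas. Mycn (ENSMUSG00000037169, chr12:12936096-12941914), a MYC family transcription factor, had 93, 68 and 77 in WT and 35, 0, 2, 1 and 2 in Rag2c/c p53-/- lymphomas. Replicate 1 alone stood above the near-0 state.

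Zfp125 (chr12:20899822-20900867), a zinc finger gene, had another pattern. It had 98, 62 and 97 in WT, 60, 47, 82, 59 and 72 in Rag2c/c p53-/- lymphomas and 0, 2, 0, 0 and 0 in Atm-/- lymphomas. The WT and Rag2c/c p53-/- values overlapped (log2 fold change -0.41 ± 0.46, SE, limma adjusted p = 0.504), while Atm-/- lymphomas were lower than Rag2c/c p53-/- lymphomas by -5.68 ± 0.40 (SE, limma adjusted p = 1.56e-06). The gene 3110053B16Rik, which overlaps it on the same strand, had means of 87.0 in WT, 3.2 in Atm-/- and 137 in Rag2c/c p53-/- libraries. Of 329 tested zinc finger genes named Zfp, 94 were lower and 19 higher in Atm-/- lymphomas than in WT.

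Nova1 (ENSMUSG00000021047, chr12:46694517-46818775), a splicing regulator best known from neurons, had 2, 0 and 1 in WT thymus and 1583, 1167, 206, 389 and 686 in Atm-/- lymphomas. It was also on in all 5 Rag2c/c p53-/- lymphomas, with 70, 61, 84, 346 and 511. The log2 fold change of Rag2c/c p53-/- lymphomas against WT was 6.33 ± 0.80 (SE, limma adjusted p = 9.38e-05). Between the lymphoma groups the values overlapped, and the log2 fold change of 2.12 ± 0.69 was not called (SE, limma adjusted p = 0.0634). It was called when Atm-/- replicate 3 or Rag2c/c p53-/- replicate 4 or 5 was left out (adjusted p from 0.03 to 0.0498). Rbm44 (chr1:91145089-91170795), an RNA-binding protein of germ cells, had 199, 169 and 120 in WT and 0, 0, 3, 284 and 0 in Rag2c/c p53-/- lymphomas. Replicate 4 exceeded every WT thymus while the other 4 were near 0.

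Some genes known from the germ line, grouped here only for description, were Rbm44 above and Rec8, Dmc1, Ccnb1ip1 and Tcp11. Rec8 encodes the cohesin subunit of meiosis, Dmc1 the meiotic recombinase, Ccnb1ip1 a ligase needed for meiotic crossovers and Tcp11 a protein of sperm. Rec8 (ENSMUSG00000002324, chr14:55618037-55625395) had 144, 68 and 91 in WT thymus, at most 2 in Atm-/- lymphomas and 0, 3, 183, 1980 and 17 in Rag2c/c p53-/- lymphomas. Replicate 4 lay far above every WT thymus and replicate 1 was at 0. Neither comparison was called (log2 fold change against WT -1.67 ± 1.80, SE, limma adjusted p = 0.487), and Atm-/- minus Rag2c/c p53-/- was -5.53 and called without replicate 1 (adjusted p = 0.0266, against 0.0934 with it). Dmc1 (chr15:79561500-79605084) had 74, 52 and 62 in WT and 2, 111, 95, 4 and 17 in Rag2c/c p53-/- lymphomas. The lymphomas with high Dmc1 were replicates 2 and 3, those with high Rec8 were replicates 3 and 4. Against WT the difference in Dmc1 was not called (adjusted p = 0.228), and Atm-/- lymphomas were lower than Rag2c/c p53-/- lymphomas by -3.66 ± 0.92 (SE, limma adjusted p = 0.0215, 0.0516 without Atm-/- replicate 1 and 0.055 with only both lymphoma groups in the fit).

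Tcp11 (chr17:28066747-28080639) was less variable, with 67, 97 and 62 in WT and 80, 37, 45, 50 and 24 in Rag2c/c p53-/- lymphomas, values that overlapped (limma adjusted p = 0.274). It was lower in Atm-/- than in Rag2c/c p53-/- lymphomas by -4.25 ± 0.45 on the log2 scale (SE, limma adjusted p = 4.39e-05). Ccnb1ip1 (ENSMUSG00000071470, chr14:50789249-50795728) went the other way, with 0 in each WT thymus and 225, 607, 292, 592 and 112 in Atm-/- lymphomas. In Rag2c/c p53-/- lymphomas it had 3, 54, 44, 19 and 199, from near 0 to on. The fitted difference from WT was 5.05 ± 0.96 (SE, limma adjusted p = 0.00136) and depends on the pseudocount, since WT was at 0. Atm-/- lymphomas were higher than Rag2c/c p53-/- lymphomas by 3.21 ± 0.83 (SE, limma adjusted p = 0.0241), a call lost without Atm-/- replicate 4 (0.0595), without Rag2c/c p53-/- replicate 4 (0.0514) and with only both lymphoma groups in the fit (0.0526). In that comparison the Atm-/- side was held high by the rule.

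**Figure D4:**
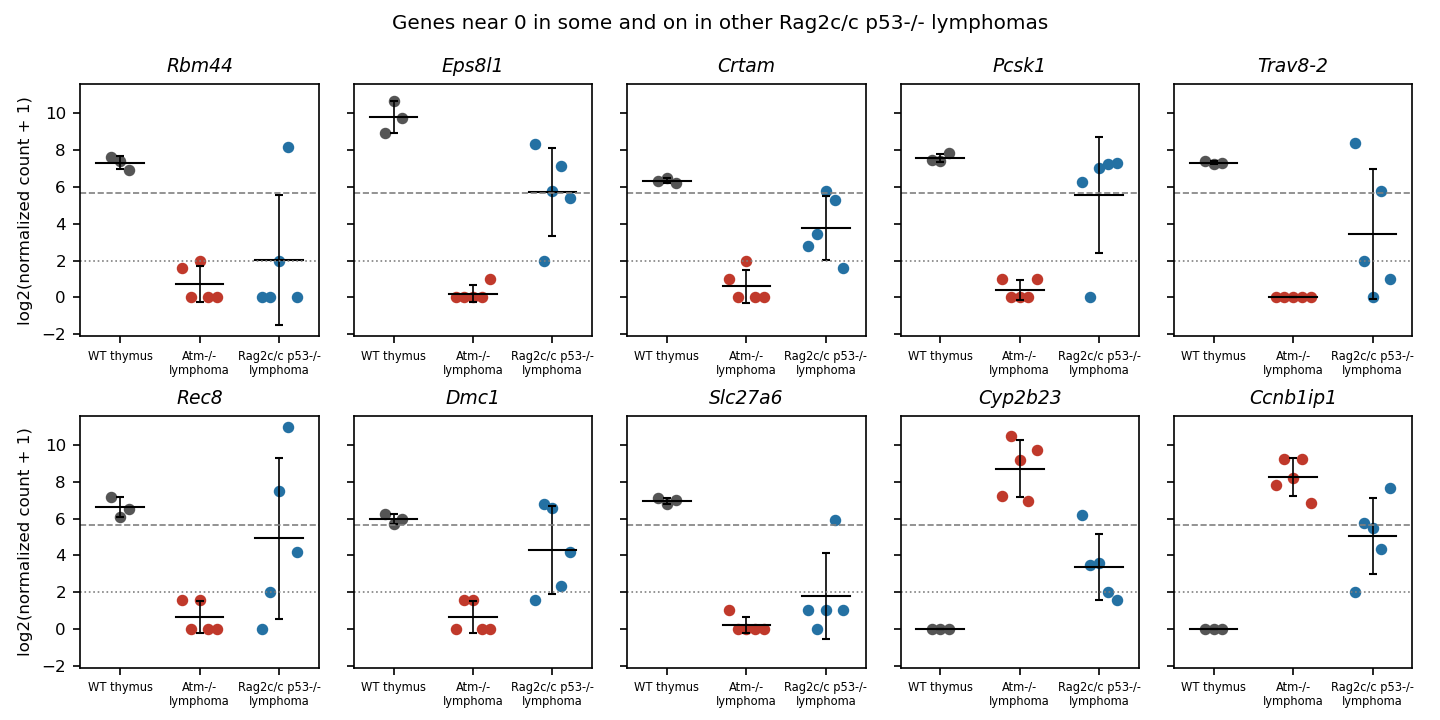
Log2(normalized count + 1) of the 10 split genes by group (points are libraries, the horizontal bar is the mean and the whisker 1 SD over 3 or 5 libraries, the dotted and dashed lines are the limits of 3 and 50). Rbm44 and Slc27a6 have a single high Rag2c/c p53-/- lymphoma, Pcsk1 a single low one, and Rec8, Dmc1 and Ccnb1ip1 spread over the range.

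Arhgap32 (ENSMUSG00000041444, chr9:32116136-32268446), a GTPase-activating protein, had 183, 156 and 280 in WT and 2, 0, 7, 3 and 3 in Rag2c/c p53-/- lymphomas, with no overlap. Pip5k1b (chr19:24294794-24555872), a kinase that makes phosphatidylinositol bisphosphate, had 296, 351 and 357 in WT and 27, 24, 77, 43 and 45 in Rag2c/c p53-/- lymphomas. It thus kept a level there that Atm-/- lymphomas lacked, -3.04 ± 0.50 below WT and, for Atm-/- minus Rag2c/c p53-/-, -4.83 ± 0.43 (SE, limma adjusted p = 0.000542 and 1.11e-05). Eps8l1 (chr7:4460674-4479404), a relative of the actin regulator EPS8, had 492, 1637 and 874 in WT, at most 1 in Atm-/- lymphomas and 328, 3, 55, 138 and 41 in Rag2c/c p53-/- lymphomas. Replicate 2 alone was near 0, and the fold change against WT was -4.06 ± 1.04 (SE, limma adjusted p = 0.00812).

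Nrg2 (chr18:36017707-36197380) encodes a neuregulin, a ligand of ERBB receptors. It had 227, 309 and 222 in WT and 10, 182, 38, 229 and 19 in Rag2c/c p53-/- lymphomas, of which replicate 4 reached the WT range. The difference from WT narrowly missed the call (log2 fold change -2.28 ± 0.87, SE, limma adjusted p = 0.0533) and was called with a pseudocount of 5 (0.0379), without Atm-/- replicate 2 (0.0482) and without Rag2c/c p53-/- replicate 2 or 4 (0.0225 and 0.017). Plcxd1 (chr5:110099969-110105953), named for a phospholipase C domain, had 110, 117 and 106 in WT and 4, 10, 43, 41 and 21 in Rag2c/c p53-/- lymphomas (log2 fold change -2.59 ± 0.65, SE, limma adjusted p = 0.00712). Grik1 (ENSMUSG00000022935, chr16:87896196-88056176), a kainate-type glutamate receptor, had 2, 3 and 1 in WT and 172, 505, 686, 201 and 72 in Atm-/- lymphomas. Its values in Rag2c/c p53-/- lymphomas were 1481, 88, 32, 703 and 608, all above WT (log2 fold change 6.62 ± 1.08, SE, limma adjusted p = 0.00049), and they overlapped those of Atm-/- lymphomas (adjusted p = 0.916).

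Secreted proteins, enzymes and transporters made up much of the rest. Adamts6 (ENSMUSG00000046169, chr13:104287873-104494763), a secreted metalloprotease, had 776, 494 and 817 in WT, 0 to 3 in Atm-/- lymphomas and 102, 27, 15, 34 and 4 in Rag2c/c p53-/- lymphomas. No Rag2c/c p53-/- lymphoma reached WT (log2 fold change -4.82 ± 0.77, SE, limma adjusted p = 0.000455). Pcsk1 (chr13:75089826-75132498), a convertase of prohormones, had 177, 169 and 226 in WT, at most 1 in Atm-/- lymphomas and 75, 0, 129, 154 and 158 in Rag2c/c p53-/- lymphomas. The 4 expressing Rag2c/c p53-/- lymphomas all stayed below the lowest WT thymus, and with replicate 2 at 0 the difference from WT was not called (limma adjusted p = 0.243). Atm-/- lymphomas were lower than Rag2c/c p53-/- lymphomas (log2 fold change -5.17 ± 1.13, SE, limma adjusted p = 0.0102). Gcnt4 (chr13:96924689-96950912), a glycosyltransferase that branches glycans, had 59, 65 and 72 in WT and 0 to 3 in the lymphomas of both genotypes. Slc27a6 (chr18:58556257-58612773), a fatty acid transport protein, had 136, 110 and 127 in WT and 1, 0, 1, 60 and 1 in Rag2c/c p53-/- lymphomas, where replicate 4 alone was on.

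Cldn10 (chr14:118787908-118875489), a tight junction claudin, had 101, 94 and 90 in WT and 3, 10, 15, 21 and 25 in Rag2c/c p53-/- lymphomas (log2 fold change -2.86 ± 0.62, SE, limma adjusted p = 0.00309). Crip3 (chr17:46428926-46431776), a LIM domain protein, had 77, 52 and 90 in WT and 3 to 5 in Rag2c/c p53-/- lymphomas. For both genes every lymphoma lay below every WT thymus. Cyp2b23 (ENSMUSG00000040650, chr7:26665227-26686437), a cytochrome P450 gene, was at 0 in each WT thymus and had 147, 1427, 580, 124 and 846 in Atm-/- lymphomas and 73, 10, 11, 3 and 2 in Rag2c/c p53-/- lymphomas. All Atm-/- values lay above all Rag2c/c p53-/- values (log2 fold change 5.35 ± 0.86, SE, limma adjusted p = 0.00149), with the Atm-/- side held high by the rule. The call against WT (adjusted p = 0.0172) was lost when any 1 WT thymus was left out (0.0523 to 0.0564), without Rag2c/c p53-/- replicate 1, when the mean no longer reached 10, and with a pseudocount of 5 (0.136). Of the 21 P450 genes tested, 5 were higher and 7 lower in Atm-/- lymphomas than in WT.

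Myh7b (chr2:155611212-155634307), a myosin heavy chain gene of muscle, had 2, 0 and 2 in WT, 321, 178, 268, 325 and 297 in Atm-/- lymphomas and 8, 3, 5, 34 and 5 in Rag2c/c p53-/- lymphomas. Atm-/- lymphomas stood apart from Rag2c/c p53-/- lymphomas in every library. The call of Rag2c/c p53-/- lymphomas against WT (limma log2 fold change 2.04 ± 0.64, SE, adjusted p = 0.023) was lost without Rag2c/c p53-/- replicate 4, when the mean no longer reached 10, without WT replicate 2 (0.118) and with a pseudocount of 5 (0.0782). Phyhip (chr14:70457476-70468832), named for its interaction with phytanoyl-CoA hydroxylase, had 52, 71, 85, 64 and 54 in Atm-/- lymphomas and 0 to 3 in all other libraries. Gm11744, which GENCODE vM21 names Prcd (chr11:116653534-116668389), had 1, 0 and 0 in WT, 453, 128, 819, 348 and 361 in Atm-/- lymphomas and 33, 304, 7, 169 and 166 in Rag2c/c p53-/- lymphomas. The difference between the lymphoma groups was not called (limma adjusted p = 0.104, and 0.0475 without Rag2c/c p53-/- replicate 2). Cygb, the cytoglobin gene that overlaps it on the opposite strand, had means of 9.33, 370 and 151, so reads of the pair cannot be separated without the strand setting, which is not given in the sources used here.

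The copies of coding genes fell into distinct patterns in the Rag2c/c p53-/- lymphomas. Gm12666 (ENSMUSG00000066107, chr4:92190744-92191749), the copy of Larp7 shown above, had 312, 438, 369, 378 and 356 normalized counts in Atm-/- lymphomas. In WT thymus it had 0, 3 and 1, and in Rag2c/c p53-/- lymphomas 1, 0, 1, 3 and 0. All Atm-/- values lay above all others, while Larp7 itself had means of 1916 in WT, 2715 in Atm-/- and 2903 in Rag2c/c p53-/- libraries. The copies Gm8420 (85, 167, 121, 201 and 92 in Atm-/- lymphomas) and Gm13337 (74, 75, 85, 120 and 75) were likewise near 0 in all WT and Rag2c/c p53-/- libraries. The coding genes were high in every library, Rpl15 from 3854 to 7815 and Phgdh from 2975 to 8018.

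Rpl15-ps2 (chr9:72060937-72061549) and Gm6166 (chr9:57483913-57484585) were on in Atm-/- lymphomas and low elsewhere. Rpl15-ps2 had 215, 427, 240, 333 and 184 in Atm-/- lymphomas and 4, 14, 4, 7 and 10 in Rag2c/c p53-/- lymphomas, and lies within the span of Tcf12 on the opposite strand. Gm6166 had 603, 617, 547, 570 and 411 in Atm-/- lymphomas, 3 in each WT thymus and 1, 17, 6, 31 and 6 in Rag2c/c p53-/- lymphomas. Rag2c/c p53-/- lymphomas were not called against WT (limma adjusted p = 0.19), except without their replicate 1 (0.0184). In Atm-/- lymphomas Gm6166 lay below Fabp5 in each library, which had 906, 1697, 616, 946 and 615 there. In the Rag2c/c p53-/- lymphomas the highest value of Gm6166, 31, and the highest value of Fabp5, 4861, were both in replicate 4. Gm6594 (chr17:82539258-82539545), which is 92.3% identical to the transcript of the chromatin protein gene Hmgn2, had 65, 114, 121, 143 and 101 in Atm-/- lymphomas and 0 to 2 in all other libraries.

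The copies Gm16399 (chr3:14802356-14802574) and Gm6265 (chr12:56373593-56373823) of Cox6c were present in both lymphoma groups. Gm16399 had 68, 119, 113, 96 and 74 in Atm-/- lymphomas and 55, 159, 21, 75 and 72 in Rag2c/c p53-/- lymphomas. Gm6265 had 63, 174, 105, 226 and 81 in Atm-/- lymphomas and 50, 274, 28, 104 and 105 in Rag2c/c p53-/- lymphomas. WT thymus had 0 to 3 of both, and the log2 fold changes of Rag2c/c p53-/- lymphomas against WT were 5.34 ± 0.61 and 5.75 ± 0.65 (SE, limma adjusted p = 4.81e-05 and 4.72e-05). Cox6c had 1787 to 1975 in WT and 2109 to 5282 in Rag2c/c p53-/- lymphomas, where replicate 2 was the highest for Cox6c and for both copies.

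Gm9008 (ENSMUSG00000072476, chr6:76496357-76497631) was expressed at a uniform level in Rag2c/c p53-/- lymphomas. It had 347, 355, 328, 349 and 345 in Rag2c/c p53-/- lymphomas and 439, 126, 417, 431 and 405 in Atm-/- lymphomas, against 1, 3 and 1 in WT. The log2 fold change of Rag2c/c p53-/- lymphomas against WT was 7.10 ± 0.41 (SE, limma adjusted p = 2.91e-07), and the difference between the lymphoma groups was not called (adjusted p = 0.946). Its single exon is 99.05% identical to Rnf26, a ubiquitin ligase gene, over 98.5% of its length. Rnf26 had 1417 to 1793 in WT, 1393 to 2530 in Atm-/- and 1887 to 2330 in Rag2c/c p53-/- libraries, and in Atm-/- lymphomas replicate 2 was the lowest for both genes.

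**Figure D5:**
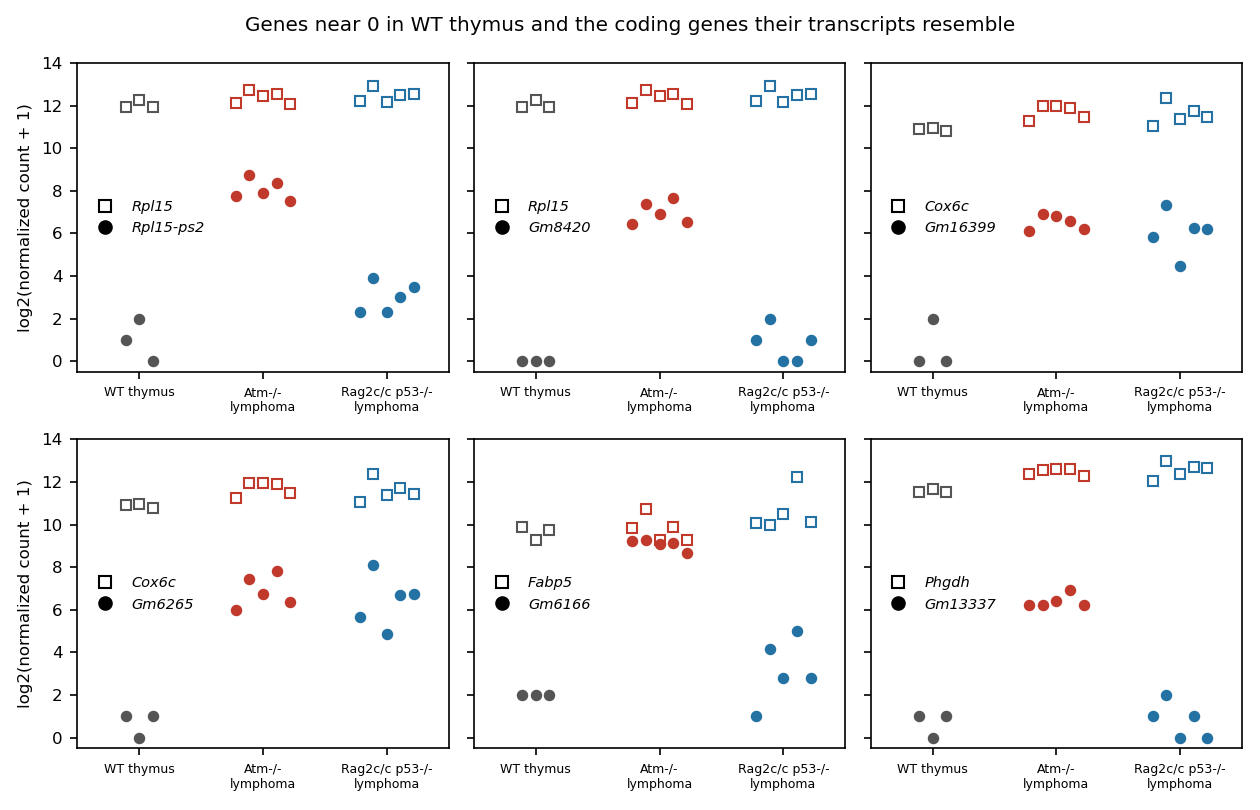
Log2(normalized count + 1) of 6 copies (circles) and of the coding gene each resembles (squares) by group, 1 point per library. The coding genes stay high in all 3 groups, the copies are near 0 in WT, and Gm16399 and Gm6265 but not Gm8420 or Gm13337 are present in Rag2c/c p53-/- lymphomas.

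Among the 31 genes near 0 in Atm-/- lymphomas, Hmgb1-ps8 (chr10:22262742-22263367) is a copy of Hmgb1, a chromatin protein gene, and differed from it at 22 of 619 bases. It had 275, 263 and 339 in WT and 115, 115, 92, 13 and 40 in Rag2c/c p53-/- lymphomas, a log2 fold change of -2.30 ± 0.67 (SE, limma adjusted p = 0.0162, and 0.0538 and 0.0688 without WT replicate 1 and 3). It lies within Gm26740 on the same strand, which had means of 382 in WT, 4.8 in Atm-/- and 82.2 in Rag2c/c p53-/- libraries. H60b, a ligand gene of the NKG2D receptor that overlaps it on the opposite strand, ran the other way, with 105, 5, 51, 51 and 77 in Atm-/- lymphomas and at most 1 elsewhere. Gm3636 and Gm2237 resembled 80 and 72 other genes, so their values (59, 62 and 62, and 62, 55 and 53, in WT) are uncertain. Both had 0 to 2 in Atm-/- lymphomas, and in Rag2c/c p53-/- lymphomas Gm3636 had 3, 0, 5, 6 and 20 and Gm2237 had 4, 0, 16, 12 and 22. The call of Gm2237 against WT (adjusted p = 0.0176) was lost when any 1 WT thymus was left out (0.056 to 0.0681), and the difference between the lymphoma groups (0.0521) was called without Atm-/- replicate 2 or Rag2c/c p53-/- replicate 2 (0.0442 and 0.00266).

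The antisense gene Gm12454 (chr4:43504428-43508747) had 79, 75 and 69 in WT, 0 or 1 in Atm-/- lymphomas and 111, 51, 31, 76 and 59 in Rag2c/c p53-/- lymphomas. Car9, the carbonic anhydrase gene on the opposite strand, had 40, 55 and 33 in WT, 2, 2, 5, 19 and 11 in Atm-/- and 49, 98, 15, 69 and 63 in Rag2c/c p53-/- libraries. Gm12454 and C130046K22Rik (57, 62 and 63 in WT, 52, 17, 36, 16 and 32 in Rag2c/c p53-/- lymphomas) were not called against WT (limma adjusted p = 0.637 and 0.136) and were lower in Atm-/- than in Rag2c/c p53-/- lymphomas (adjusted p = 1.56e-06 and 9.96e-05). Near 0 in all lymphomas or nearly so were Gm5111 (71, 58 and 60 in WT) and Gm28049 (58, 52 and 68), the latter with 10 in Rag2c/c p53-/- replicate 2. For 9230102O04Rik (chr2:9883041-9889540), 105, 130, 54, 162 and 55 in Atm-/- lymphomas and 37, 206, 25, 168 and 106 in Rag2c/c p53-/- lymphomas compared with 1 to 3 in WT (log2 fold change of Rag2c/c p53-/- against WT 5.02 ± 0.67, SE, limma adjusted p = 0.000144). It overlaps Gata3, a transcription factor gene of T cells on the same strand, whose means were 3398 in WT, 6215 in Atm-/- and 5006 in Rag2c/c p53-/- libraries. Gm15698 (74, 151, 124, 133 and 60) and Gm7125 (91, 105, 71, 160 and 114) were on in Atm-/- lymphomas and near 0 in all other libraries, except for 16 of Gm15698 in Rag2c/c p53-/- replicate 3.

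Trav8-2 (chr14:53738302-53741038), a variable segment of the T cell receptor alpha locus, entered because its biotype in the table is a transcribed pseudogene and not a T cell receptor class. It had 170, 149 and 158 in WT, 0 in each Atm-/- lymphoma and 339, 3, 0, 54 and 1 in Rag2c/c p53-/- lymphomas. Replicate 1 held more than any WT thymus, and replicates 2, 3 and 5 were near 0.

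No pair of members lay within 1 Mb. The closest pair was Gm28049 and Phyhip on chromosome 14, with starts 1.09 Mb apart, and 3 pairs lay within 2 Mb. The same state in all 5 Rag2c/c p53-/- lymphomas was found in 0 of 10 pairs within 10 Mb and in 67 of 1253 pairs on different chromosomes, and 10 pairs are too few to set these shares apart. Chromosome 14 held 8 of the 52 genes. The tested genes next to each member, with starts within 500000 bases, were examined for their own difference between Atm-/- lymphomas and WT. Of 55 neighbors of the genes near 0 in Atm-/- lymphomas, 25 (45.5%) were called, 22 of them lower. Of 28 neighbors of the genes near 0 in WT, 9 (32.1%) were called, 6 of them higher, beside 29.5% of all genes tested. Some neighbors overlapped the member or were T cell receptor segments, and without those 20 of 46 (43.5%) and 8 of 26 (30.8%) were called. Called neighbors included Pyhin1 beside Pydc4 (mean 3122 in WT and 72.8 in Atm-/- lymphomas), Klra7 beside Klra9 (19.7 and 0.2) and Dzip1 beside Cldn10 (4355 and 44.6). Stat4, the neighbor of Gm8420, ran against it, with 574 in WT and 22.2 in Atm-/- lymphomas.

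In gene structure the sets differed. A single exon was annotated for 8 of the 21 genes near 0 in WT (38.1%) and 1 of the 31 genes near 0 in Atm-/- lymphomas (3.2%), beside 11.2% of all genes tested. A pseudogene biotype in the table was carried by 7 of the 21 (33.3%) and 2 of the 31 (6.5%), beside 5.7%. RefSeq promoters (GRCm38.p6, 300 bases around the start) were found for 19 of the 31 and 8 of the 21 genes, with a median of 5 and 4.5 CG pairs, beside 7 over 27025 promoters. At least 10 CG pairs were held by 47.4% and 37.5%, beside 43.9%. The count ran from 0 for Marco to 52 for Tox3.

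The genes nearest to the limits show how sharply the rule cut. Crip3, Dmc1 and Gm28049 entered with a lowest WT value of 52, and Nlrp1a and Trav7n-6 were left out with 49. Gm26510, Csgalnact1 and Fcgbp were left out because their highest Atm-/- value was 4, with lowest WT values of 205, 114 and 110. On the other side Cxcl14 and Phyhip entered with a lowest Atm-/- value of 52. Cux2, Gm2420 and Rgs13 were left out with 43, and the tumor suppressor gene Cdkn2a was left out because its highest WT value was 4, with a lowest Atm-/- value of 213.

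Markers of other cell types moved between the groups as well. Of 14 thymic epithelial markers, 7 were lower in Atm-/- lymphomas and 9 in Rag2c/c p53-/- lymphomas, each against WT, and their sum was 2355 to 3230 in WT, 747 to 1405 in Atm-/- and 906 to 1839 in Rag2c/c p53-/- libraries. Foxn1, Tbata and Psmb11 were near 0 in every Atm-/- lymphoma. In Rag2c/c p53-/- lymphomas they were low as well, with 1 to 7, 0 to 19 and 0 to 1. Of the 14 markers 0 were called higher in either lymphoma group. Even so, Aire in Atm-/- replicate 1 (90) and Krt5 and Krt14 in Atm-/- replicate 4 (233 and 111) exceeded every WT thymus. Epcam had 22, 875, 540, 172 and 750 in Rag2c/c p53-/- lymphomas, against 221 to 283 in WT. Ccl25 had 227, 429, 281, 297 and 240 there, against 260 to 296 in WT. Of 10 B cell markers, 8 were lower in Atm-/- lymphomas and 7 in those of Rag2c/c p53-/- mice. Their sum was 10577 to 14521 in WT, 2458 to 27500 in Atm-/- and 1550 to 22590 in Rag2c/c p53-/- libraries. Ighm, which is part of the sum, had 4317, 5924, 2992, 27278 and 2145 in Atm-/- lymphomas, against 8574 to 12750 in WT. In Rag2c/c p53-/- lymphomas Ighm had 3625, 905, 10714, 22279 and 2768. Of 10 fibroblast markers, 5 were higher in Atm-/- lymphomas and 2 in Rag2c/c p53-/- ones. The part of all these cell types in the genes near 0 in Atm-/- lymphomas was not tested. Thymocyte markers were present in all libraries, with a sum of 158958 to 251491 in WT, 78498 to 150187 in Atm-/- and 109216 to 165579 in Rag2c/c p53-/- libraries. Of these 10 markers, 3 were lower in Atm-/- lymphomas and 1 in Rag2c/c p53-/- lymphomas, each against WT. Rag1 alone, which is part of the sum, had 48182 to 70834 in WT, 2383 to 7116 in Atm-/- and 5620 to 23493 in Rag2c/c p53-/- libraries.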

How the data were processed

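RNA sequencing values of 13 libraries were analysed. Per the study's methods, taken to hold for all libraries, and the submitters' processing notes, the authors used STAR 2.4.0g1 to align stranded mRNA reads (GRCm38), dropped duplicates with Picard, kept unique alignments, counted them per gene and normalized the counts with DESeq2 1.6.3. The deposited values are scores, normalized counts rounded to whole numbers, and no test made for raw counts was applied. Fold changes and p-values of the authors in the same table were not used. Their recomputed size factors were 0.993 to 1.03, and no further scaling was applied.

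Genes with at least 10 in at least 3 libraries (15872) were fitted with limma 3.58.1 in R 4.3.3 on log2(value + 1) in 3 groups with trend and robust moderation, and the fit was tested on simulated data. A fold change on this scale understates the change of low genes. Likeness between transcripts was found with BLAST 2.17.0 in GENCODE vM21. The members, the gene lists and the rule for named genes (10 highest and 10 most changed members of each set, split members, members on a list, genes at the limits, Atm, Rag2 and Trp53) were chosen with earlier results of these data known. The genes described beyond this rule were chosen after their values were seen. Alternatives covered the limits, scaling, pseudocount, filter, threshold, variance model, groups in the fit and each library. Replicates are separate mice.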

Additional observations from a re-analysis of the deposited data

Results flagged for a closer look

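In groups of 5 libraries, a value stood apart when its gap to the nearest other, as a share of the range of log2(value + 1), exceeded 0.71. Of 63 groups of the 52 genes examined, 7 did so. The usual chance rate of about 1 in 20 groups does not hold for rounded counts with many values of 0, so nothing is read from this number. Among Rag2c/c p53-/- lymphomas, replicate 4 was the highest for Rbm44 (284 normalized counts, gap 0.755) and for Slc27a6 (60, gap 0.831). Replicate 2 was the lowest for Pcsk1 (0, gap 0.854) and the highest for Gm28049 (10, about 3 reads in this shallow library, gap 1.0). Replicate 3 was the highest for Gm15698 (16, gap 1.0). Among Atm-/- lymphomas, replicate 4 was the highest for Gm13337 (120, gap 0.714) and replicate 2 the lowest for Gm9008 (126, gap 0.935).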

How the results depend on the processing

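The number of genes near 0 in Atm-/- lymphomas went from 31 to 4 with limits of 1 and 100 and to 73 with limits of 5 and 30, and the number near 0 in WT from 21 to 3 and 49. The 10 split genes became 18 when on meant at least 10 and 4 with limits of 1 and 100. Without a fold-change threshold, 5884 in place of 3750 genes were called between Rag2c/c p53-/- lymphomas and WT. Leaving out 1 library at a time gave 31 to 40 genes near 0 in Atm-/- lymphomas, 22 to 29 near 0 in WT and 7 to 9 split genes. The 23 genes near 0 in Atm-/- lymphomas that were called lower in Rag2c/c p53-/- lymphomas against WT became 10, 12 and 11 without WT replicate 1, 2 and 3 and ranged from 10 to 24 over all left-out libraries. In those 3 fits only 23 of the 31 genes passed the filter, and with a filter of at least 10 in at least 2 libraries, an alternative chosen after seeing the data, they were 18, 20 and 19. The other member counts stayed within 1.5 times their value under the alternatives run. Of 79 gene results, 50 kept direction and call under every alternative, 12 kept them where fitted but failed a filter on low values under some, 9 lost and 7 gained a call under some alternative, and 1 turned sign. The 79 include the 14 results against WT and the 11 between the lymphomas for which no test is given above. The share that kept a call therefore says little about how firm the calls are. Rbm44, not called between Atm-/- and Rag2c/c p53-/- lymphomas at -1.31, ranged from -1.822 to 0.217 with 1 library left out, the latter without Rag2c/c p53-/- replicate 4. The cause of these changes was not tested beyond the filter. No paired analysis was possible because the replicate numbers are only names given in order and no label pairs libraries across groups. In the shallowest libraries 1 read is worth over 3 normalized counts, so a value near 0 there cannot be told from 0.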
